A study of Mus musculus with 6 samples.

Results

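Wild-type L-GMP cells were described here on their own, from 3 of the 6 libraries of the series. The 3 were chosen because the labels give their genotype as WT, and they are numbered 1 to 3 in the labels. The other 3 libraries come from Prmt6-/- leukaemia and were not used, so no genotype is compared. All 30037 rows that name a gene were kept. The donors were leukaemic mice with acute myeloid leukaemia (AML) aged 8 to 10 weeks, the sorted cells came from their bone marrow, and "wild type" refers to Prmt6. The labels give neither the sort markers nor the way in which the leukaemia was made, and they do not say that the libraries came from separate animals. The spread between libraries may therefore be technical. The RNA was selected by its poly(A) tail, reverse transcribed with random primers and amplified in 15 PCR cycles.

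In the leukaemia literature L-GMP is the usual name for leukaemic cells with the surface markers of the granulocyte-macrophage progenitor, although the labels do not spell the abbreviation out. A normal granulocyte-macrophage progenitor makes neutrophils and monocytes, fills the first granules of the neutrophil with proteases, and divides often. In several mouse models of AML the cells with these markers carry on the leukaemia when transplanted, and they often keep Hoxa genes and Meis1 switched on, which normal cells turn off as they mature.

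The deposited values are on a log2 scale and run from -1.97 to 17.2 in these libraries. Read depth is unknown, because the values are not counts. Of the 30037 genes, 7932 (26.4%) were listed at 0 in all 3 libraries. A mean under 5 was found for 11407 further genes, a mean from 5 to under 10 for 7022, and a mean of at least 10 for 3676. A gene is called measured here if it reached 5 in every library, which 10614 genes (35.3%) did. Among the 21253 protein-coding genes 10360 were measured, a share of 48.7%, which is the background for every list below. Genes are compared with each other only per length, as the deposited value minus log2 of the transcript length in kb. The percentile of a gene is its rank by this per-length level among 15489 protein-coding genes with a mean above 0. The median of these genes thus lies at the middle of the scale. Genes listed at 0 were given the lowest percentile by choice. On the deposited scale 5098 genes lay below 0 in every library. Their order against the genes listed at 0 is not known. Members of a list are ordered by this per-length level and quoted with their deposited values, and ± gives the SD over 3 libraries throughout.

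The sequences shown first belong to the primary granule and mitosis lists, whose median percentiles were 96.96 and 85.4. Other lists lay higher than mitosis, such as ribosomal proteins at 98.5. Promoter sequences are from RefSeq on GRCm38.p6, 5′ to 3′ on the strand of the gene, and end just upstream of the start site or of the first annotated exon base. They come from the members of highest per-length level, among those with an entry that leaves enough untranscribed sequence, of the primary granule list (Elane, Ctsg, Prtn3 and Srgn) and of the mitosis list (Ccnb2 and Ube2c). Capitals mark every match on either strand to TATAAA, the letters of the TATA box, or to CCAAT, which NF-Y binds. They also mark GAGGAA, a core bound by PU.1, and TTGCNNAA, which C/EBP factors bind. No 2 matches overlapped. A match to the opposite strand reads as the reverse complement. Mpo was passed over because most of its entry lies in the first annotated exon.
Elane, chr10:79886097-79886246, plus strand: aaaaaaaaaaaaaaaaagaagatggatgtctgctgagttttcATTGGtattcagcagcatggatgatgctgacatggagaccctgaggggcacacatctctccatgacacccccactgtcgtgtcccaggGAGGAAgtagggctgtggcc
Ctsg, chr14:56102575-56102724, minus strand: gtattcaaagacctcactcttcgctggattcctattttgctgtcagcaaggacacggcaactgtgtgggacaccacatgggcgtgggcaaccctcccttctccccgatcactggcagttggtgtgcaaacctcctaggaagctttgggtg
Prtn3, chr10:79879464-79879613, plus strand: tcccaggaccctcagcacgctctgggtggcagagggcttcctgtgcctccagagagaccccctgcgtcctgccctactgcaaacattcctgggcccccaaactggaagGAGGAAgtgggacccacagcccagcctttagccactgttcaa
Srgn, chr10:62527452-62527601, minus strand: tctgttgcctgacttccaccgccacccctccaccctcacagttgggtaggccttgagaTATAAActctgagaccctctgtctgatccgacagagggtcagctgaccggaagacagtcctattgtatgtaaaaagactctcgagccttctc
Ccnb2, chr9:70421555-70421704, minus strand: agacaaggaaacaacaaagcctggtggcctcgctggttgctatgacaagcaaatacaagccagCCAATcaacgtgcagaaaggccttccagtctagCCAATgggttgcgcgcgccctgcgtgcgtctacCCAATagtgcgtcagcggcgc
Ube2c, chr2:164769748-164769897, plus strand: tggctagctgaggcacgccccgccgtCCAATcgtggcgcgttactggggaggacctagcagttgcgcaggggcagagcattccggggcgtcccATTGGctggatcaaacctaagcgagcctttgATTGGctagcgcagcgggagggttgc

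Each of the 2 mitotic promoters held 3 CCAAT matches, while GAGGAA was found in the stretches of Elane and Prtn3 and in neither of Ctsg and Srgn. Elane also held 1 CCAAT match, on the opposite strand, Srgn held 1 TATAAA match, and Ctsg held none of the 4 motifs. The Srgn match began at position -98 from the RefSeq start site. The stretches ended at different positions from that site, -65 for Elane and -53 for Prtn3. Sequence nearer the start site is not shown for these genes. Over the whole RefSeq windows of 300 bases, CCAAT was present in 18 of the 21 mitosis members with an entry (85.7%), in 15 of 24 DNA replication members (62.5%) and in 4 of 22 translation factors (18.2%). Over all 16573 matched promoters the share was 38.6%. Lists of low level in these cells also held the motif often, such as 7 of 9 Hoxd members (77.8%) and 9 of 14 erythroid members (64.3%). GAGGAA was present in 6 of 11 primary granule members (54.5%) and in 9 of 14 late neutrophil members (64.3%), beside 27.4% of all matched promoters. It was also frequent in lists of other cells, with 9 of 11 T cell members (81.8%), 9 of 16 monocyte and macrophage members (56.3%) and 6 of 12 B cell members. Some of these lists are incomplete here. An entry existed for 11 of 18 T cell and 12 of 20 B cell members. It existed for 16 of 23 monocyte and macrophage members and 14 of 19 erythroid members. The shares describe only the members with an entry. The primary granule and mitosis promoters also differed in CpG content, the observed over expected count of the dinucleotide CG. Its median was 0.145 over the 11 primary granule members, 0.870 over the 21 mitosis members and 0.597 over all matched promoters. These are descriptions of letters in a window, not of binding. A comparison of promoters by level class over all genes is void, because the promoter table holds too few of the genes in these classes, for example 71 of the 100 genes of highest level and 2275 of the 3115 protein-coding genes listed at 0.

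The transcripts that mark the usual progenitor gate were present in all libraries. Those chosen here for cells that this gate leaves out were mostly low. The labels do not give the gate that was used. Fcgr3, a receptor for the Fc part of antibodies, had deposited values of 13.35, 13.31 and 13.18 in libraries 1, 2 and 3. Its sister receptor Fcgr2b had 12.52, 12.37 and 12.35. Both are read together by the antibody that defines this gate. Cd34, a sialomucin of immature blood cells, had 10.36, 10.40 and 10.56, and Kit, the receptor for stem cell factor, had 10.22, 9.90 and 10.30. All 4 positive markers were measured, at a median percentile of 87.7, and the libraries lay at most 0.39 apart for each of them.

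Of the 8 markers chosen here for what the usual gate leaves out, 1 was measured. That was Itgam, the integrin chain CD11b of myeloid cells, at 9.08, 9.05 and 9.07. The next by per-length level were Ly6a, which encodes the stem cell antigen Sca-1, at a mean of 2.62 ± 0.03 (SD, n = 3), and Il7r, the receptor of lymphoid progenitors, at 3.93 ± 0.13. Ly6g, a neutrophil antigen, had a mean of 1.93, Cd8a 3.40 and Cd4 3.07, while the T cell gene Cd3e lay at -1.97. The median percentile of the 8 was 22.8. In RNA from sorted cells in bulk, fewer cells of a type and less RNA per cell cannot be told apart, which holds for every list below.

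The most abundant transcripts mixed housekeeping genes with products of myeloid cells. Ftl1, the ferritin light chain that stores iron, stood first at a per-length level of 17.11 ± 0.06 (log2 per kb, SD, n = 3), with deposited values of 17.01, 17.13 and 17.06. The gene lies at chr7:45457944-45459884. Elane, neutrophil elastase, came next at 16.58 ± 0.15, with deposited values of 16.42, 16.54 and 16.72 (chr10:79886247-79888215). The ranges of these 2 genes did not overlap each other or that of the third, Actb for beta-actin, at 16.21 ± 0.10. Slpi, which encodes an inhibitor of elastase and cathepsin G, followed at 16.14 ± 0.12 and overlapped with Actb, so the order of these 2 is not resolved. The polyubiquitin gene Ubb came next at 15.95 ± 0.12.

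**Figure D1:**
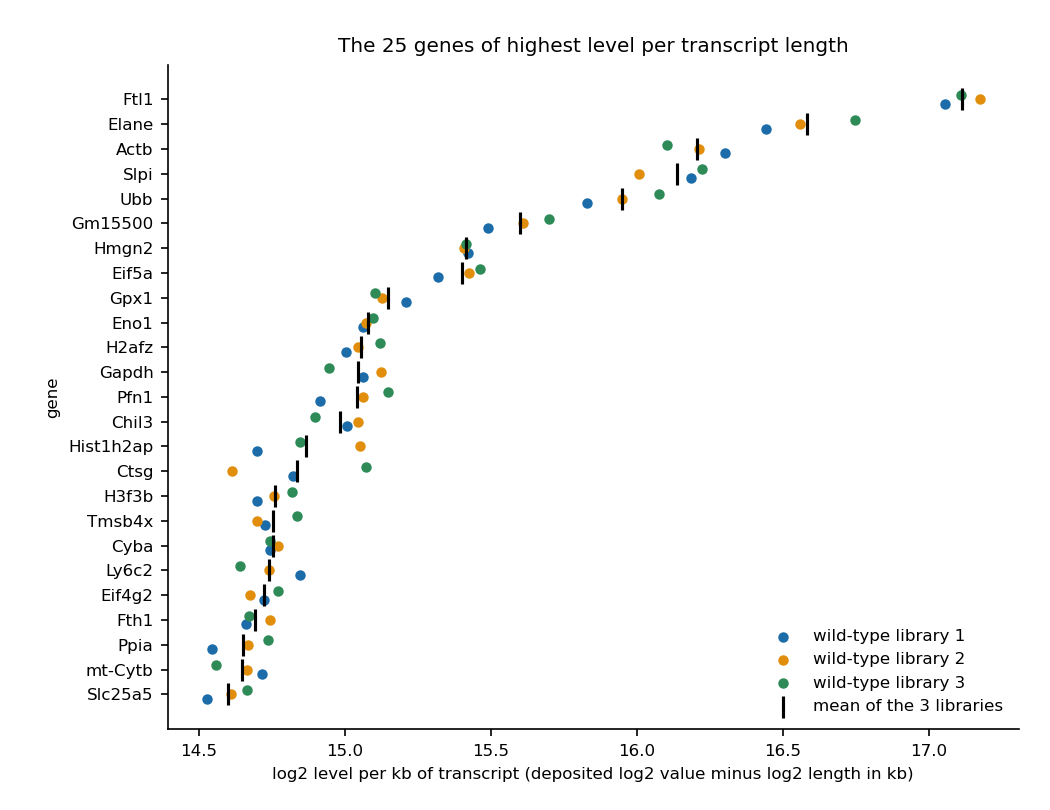
Per-length level (deposited log2 value minus log2 of the transcript length in kb, horizontal axis) of the 25 genes of highest mean, with 1 coloured point per wild-type library and a black bar at the mean of the 3. Ftl1 and Elane stand apart at 17.11 and 16.58, while from H2afz downward the points of neighbouring genes overlap.

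Of these 25 genes 24 were protein-coding, and 22 were among the first 25 of every library. Only 6 of the 24 neighbouring pairs had ranges that did not overlap, so most ranks within the group are not resolved. Besides Elane, the myeloid products were Chil3, a chitinase-like protein (14.98), Ctsg for cathepsin G (14.84), Cyba, a subunit of the phagocyte oxidase (14.75), and Ly6c2, the surface antigen of inflammatory monocytes (14.74). Glycolysis gave Eno1 (15.08) and Gapdh (15.04), chromatin gave Hmgn2 (15.41), H2afz (15.06), Hist1h2ap (14.87) and H3f3b (14.76), and the cytoskeleton Pfn1 (15.04) and Tmsb4x (14.75) beside Actb. The remaining places went to Gm15500, the translation factors Eif5a (15.40) and Eif4g2 (14.72), the peroxidase Gpx1 (15.15), the ferritin heavy chain Fth1 (14.69), the prolyl isomerase Ppia (14.65), mt-Cytb of the respiratory chain (14.65) and the ADP/ATP carrier Slc25a5 (14.60). Eif4g2 owed its place to a short annotated principal transcript of 742 bases: with its longest transcript of 7995 bases it ranked 505. Ly6c2 likewise went from rank 20 to rank 104 with the longest transcript. Ppia went from rank 23 to 77, Pfn1 from 13 to 44, Gapdh from 12 to 43 and Fth1 from 22 to 30. In contrast, Ftl1, Elane, Actb, Slpi, Ubb and Gm15500 kept the first 6 places. Of the 25 genes, 19 stayed among the first 25 with the longest transcript and 17 with the union of exons.

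The most abundant genes each held a small share of the total. On linear values, 2 to the power of the deposited value, Actb, the first gene when values are not divided by length, held 0.923% ± 0.075 of the sum and Ftl1 held 0.871%. By the same measure the first 10 genes held 5.38% ± 0.20 and the first 100 genes 19.0% ± 0.20 (SD, n = 3). Divided by length, the first 10 held 7.92% and the first 100 held 26.2%. The first 100 genes per length shared 89 members across all 3 libraries.

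Among 46 transcription factors of blood cells 30 were measured, at a median percentile of 63.2. Spi1, which encodes PU.1, led at deposited values of 14.17, 14.29 and 14.23, percentile 99.3. Myc, a driver of growth, had 12.51, 12.30 and 12.37, and Cebpe, the C/EBP factor of late granule formation, had 11.93, 12.02 and 11.82. Nfe2 at 12.20 ± 0.03 and Lyl1 at 11.94 ± 0.18 were next. The libraries lay within 0.36 of each other for all 5. At the other end stood Gata1 for the erythroid line (2.08), the stem cell factor Tal1 (0.80), the B cell factor Pax5 (0.21) and Mycn (-1.49).

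Several factors known from granulocyte-macrophage progenitors were low or uneven, and they are named here after their values were seen. Cebpa, the C/EBP factor that starts granulocyte commitment, had 5.33, 5.32 and 4.84 and missed the threshold in library 3. The repressor Gfi1 had 5.71, 5.47 and 5.48 at percentile 36.6. Irf8, which favours monocytes, was higher at 10.11, 9.97 and 10.10. Cebpb, the C/EBP factor of emergency granulopoiesis, had 9.28, 7.84 and 6.65, a range of 2.63 on the log2 scale, so its level in these cells is known only within that range.

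Of the 4 Hox clusters, the A cluster held 7 of the 8 measured genes. Hoxa9 had deposited values of 12.05, 12.13 and 12.17 (chr6:52223100-52231089, percentile 92.2), Hoxa10 had 10.14, 10.21 and 10.29, and Hoxa7 had 9.99, 10.11 and 10.18. These 3 were at or above 9.99 in every library. In the same cluster Hoxa5 (7.14), Hoxa3 (6.45), Hoxa6 (5.41) and Hoxa11 (5.02) were measured at lower levels, Hoxa2 and Hoxa4 had means of 3.47 and 3.04, and Hoxa13 was listed at 0. In counts, 7 of 11 Hoxa genes were measured, against 1 of 10 Hoxb, 0 of 9 Hoxc and 0 of 9 Hoxd genes. The single Hoxb gene was Hoxb13, at 5.76, 5.86 and 5.73, which is close to the threshold. Hoxb4, used to expand stem cells, had a mean of 3.26, and 4 Hoxd genes were listed at 0.

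**Figure D2:**
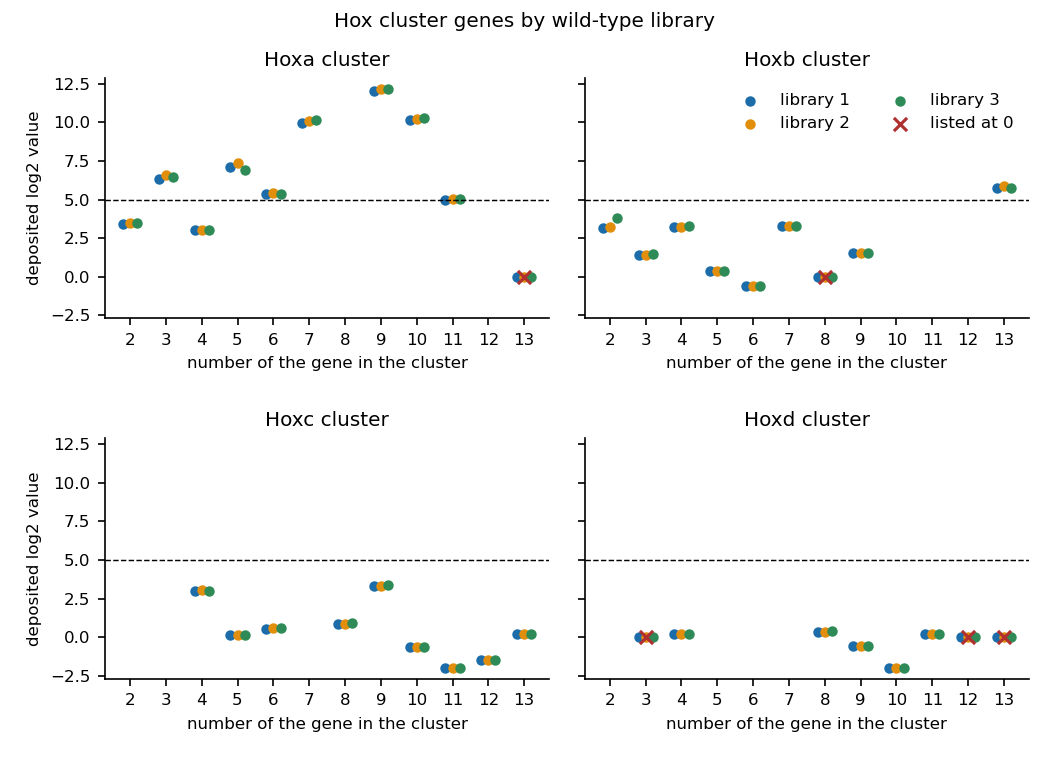
Deposited log2 value (vertical axis) of the Hox genes numbered 2 to 13 by their number in the cluster (horizontal axis), 1 panel per cluster and 1 coloured point per wild-type library, with crosses for genes listed at 0 and a dashed line at 5. Hoxa7, Hoxa9 and Hoxa10 lie at 9.99 or above in every library, and Hoxb13 is the single gene above the line in the other 3 panels.

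Among the cofactors that bind DNA with Hox proteins 5 of 9 were measured (55.6%, beside 48.7% of all protein-coding genes). Meis1, the cofactor most often paired with Hoxa9 in AML, had 10.89, 10.90 and 11.07. Pknox1 at 10.60 ± 0.12 and Pbx3 at 8.99 ± 0.09 came next, with Pbx4 at 6.38 and Pbx2 at 6.03. Meis2 (2.85), Meis3 (4.03) and Pknox2 (0.82) stayed under 5. Within these families the paralogs stood apart: Meis1 over Meis2 and Meis3, Pknox1 over Pknox2, and Pbx3 over Pbx2 and Pbx4, also per length.

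Genes of the primary granule, the first to form in neutrophil precursors, were among the highest of all lists. Of 12 genes 10 were measured and all 10 lay at or above percentile 75, at a list median of 96.96. Elane is given above. Mpo, myeloperoxidase, had 15.27, 15.19 and 16.29, with library 3 above the other two by more than 1. Ctsg had 14.83, 14.62 and 15.08, Prtn3 for proteinase 3 had 13.76, 13.95 and 14.04, and Srgn, the proteoglycan that packs granule proteins, had 14.21, 14.17 and 14.23. Ms4a3, a marker of granulocyte-macrophage progenitors, had 11.70, 11.54 and 12.29, highest in library 3 as well. The members under 5 were Bpi (3.90 ± 0.10) and the Paneth cell lysozyme Lyz1 (0.20), whereas Lyz2, the lysozyme of myeloid cells, had a mean of 11.75.

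Genes of the secondary and tertiary granules, which form later, were split. Of 14 genes 11 were measured, at a median percentile of 80.5. Chil3 with 15.63, 15.67 and 15.52 and the haptoglobin gene Hp with 14.63, 14.66 and 14.75 were highest. Next came the iron-scavenging Lcn2 (10.76 ± 0.10), the integrin chain Itgb2 (12.44 ± 0.07) and the oxidase subunit Cybb (12.03 ± 0.33). The leukotriene receptor Ltb4r1 (9.88 ± 0.20) followed, a surface receptor that the list holds although it is not granule cargo. At the other end were Mmp8 (6.19), Mmp9 (5.01, 4.92 and 5.06), and the defining cargo lactoferrin, Ltf, at 2.96, 2.93 and 2.91. Olfm4 was listed at 0.

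Genes of late neutrophils were measured for 8 of 15, close to the 48.7% of all protein-coding genes, at a median percentile of 50.04. The histone deiminase Padi4 (11.06 ± 0.20), the G-CSF receptor Csf3r (10.54 ± 0.19) and the calprotectin chains S100a8 (8.88 ± 0.15) and S100a9 (8.03 ± 0.21) were the higher ones. Retnlg (1.66), Mmp25 (2.94) and the formyl peptide receptor Fpr2 (2.18) were low in all 3 libraries, as was Ly6g.

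Of 23 genes of monocytes and macrophages 12 were measured, a share close to the 48.7% of all protein-coding genes, at a median percentile of 43.2. Ly6c2 had 14.56, 14.46 and 14.36, Cd14, the endotoxin co-receptor, had 12.05, 12.002 and 12.15, and Cd68 of the lysosome had 11.35, 11.32 and 11.43. Vcam1 (12.03 ± 0.24), the clotting factor gene F13a1 (11.93 ± 0.53) and Adgre1, which encodes F4/80 (11.01 ± 0.15), were also high. The macrophage genes C1qa (1.09), Mrc1 (0.72), Timd4 (-0.61) and Marco (-1.49) were not measured, nor was the high-affinity Fc receptor Fcgr1 (0.39).

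**Figure D3:**
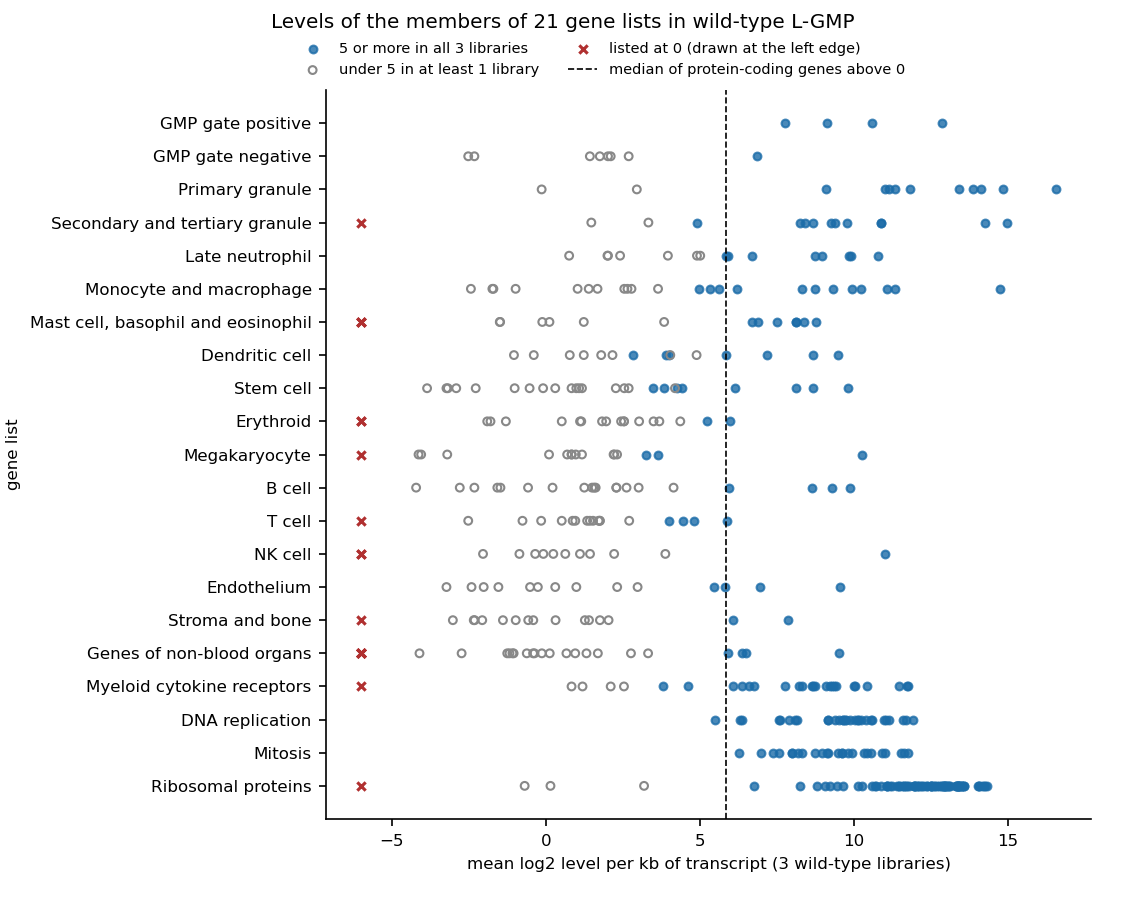
Mean per-length level (log2 per kb, horizontal axis) of every member of 21 gene lists, filled where the deposited value was 5 or more in all 3 libraries, open where it was not, with crosses at the left edge for genes listed at 0 and a dashed line at the median of protein-coding genes above 0. Primary granule, DNA replication, mitosis and ribosomal genes lie mostly right of the line, and the lists of other lineages mostly left of it.

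Stem cell genes were mostly low. Of 25 genes known from haematopoietic stem cells or early progenitors 8 were measured, at a median percentile of 18.1. The measured ones were led by Cd48, a marker of progenitors beyond the stem cell (10.06 ± 0.05), the cytokine receptor Flt3 (10.56 ± 0.15) and the factor Gata2 (9.96 ± 0.18), which are not limited to stem cells. Then came Angpt1 (8.24), Prdm16 (7.39, 7.20 and 7.96) and Ctnnal1 (6.12). Mecom, which encodes the oncogenic factor EVI1 and is named here for its spread, had 5.15, 5.70 and 7.69, so that library 3 stood 1.99 above the next. The defining stem cell genes Hoxb5 (0.40) and Tek (-1.01) were low, as were Sox17 (-0.63), Robo4 (-1.49) and Ndn (-1.97).

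Erythroid and megakaryocyte genes stayed well under the background. Among the 19 erythroid genes with a row, 2 were measured, the carbonic anhydrase Car2 (6.66, 6.59 and 7.19) and Rhd (5.77, 5.93 and 5.76). The globin genes Hba-a1 and Hbb-bs had means of 3.85 and 2.83, and the band 3 gene Slc4a1 0.39. Of 16 megakaryocyte genes 3 were measured: the tetraspanin Cd9 (10.57 ± 0.19), and the integrin chains Itga2b (5.43 ± 0.05) and Itgb3 (5.77 ± 0.05). The platelet genes Gp6 (-1.49), Mmrn1 (-1.97) and P2ry12 (-1.97) were at the bottom of the scale and Treml1 was listed at 0.

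Few lymphoid genes were measured, and they were often without their partners. Of 20 B cell genes 4 were measured: Cd24a (10.74 ± 0.01), the receptor chain Cd79b (9.56 ± 0.08), the heavy chain Ighm (9.004, 9.42 and 9.77) and the invariant chain Cd74 (6.44 ± 0.07). Cd79a, the partner of Cd79b, was not, and neither were other defining genes, with Cd79a at 3.56, Pax5 at 0.21 and Rag1 at -1.49. Of 18 T cell genes 4 were measured, Lat (6.20), the kinase Lck (5.95), Cd3d (5.14) and the factor Bcl11b (7.03), while Cd3e lay at -1.97 and Zap70 at 0.41, and Trac, the constant part of the T cell receptor alpha chain, was listed at 0. Of 13 NK cell genes the single measured one was Nkg7 (10.68, 10.46 and 11.39), a granule gene that the primary granule list also holds. Ncr1, the receptor that defines NK cells, had a mean of -1.49 and Gzmb 0.18.

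Genes shared with mast cells, basophils and eosinophils were measured at a share of 43.8%, close to the 48.7% of all protein-coding genes. Of 16 members 7 were measured, at a median percentile of 26.9. Cpa3, the mast cell carboxypeptidase, had 9.62, 9.01 and 9.28, Hdc for histamine synthesis had 9.95, 9.50 and 9.52, and Prg2, the eosinophil major basic protein, had 8.15, 7.51 and 7.90. All 3 were lowest in library 2. Mcpt8 of basophils (7.26 ± 0.23) and Siglecf of eosinophils (8.28 ± 0.22) were measured too, whereas Fcer1a, the chain that binds IgE, lay at -1.49 and Il5ra and Tpsb2 were listed at 0.

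Dendritic cell genes were measured for 7 of 15, close to the 48.7% of all protein-coding genes. They were led by Bst2 (9.15 ± 0.06), Flt3 and the factor Tcf4 (10.27 ± 0.22), with Clec9a at -1.01 and Cd209a at 0.18. Genes of stroma and bone were measured for 2 of 16, the bone factor Runx2 (10.44 ± 0.08), which blood progenitors also use, and the receptor Pdgfrb (8.51 ± 0.29). The collagen gene Col3a1 had a mean of 0.41, Adipoq and Ibsp of fat and bone lay at -1.97, and the osteocalcin gene Bglap was listed at 0. Endothelial genes were measured for 4 of 14, among them Pecam1 (11.28 ± 0.17), which leukocytes share, while Cdh5 and Emcn, which define the vessel wall, lay at -0.02 and -1.97. Of 26 genes of other organs 4 were measured: Mbp (8.86 ± 0.07), Ckm (7.94 ± 0.14), Krt18 (6.90 ± 0.11) and Tubb3 (6.81 ± 0.04). The cardiac Myh6 and the skin keratin Krt14 lay at -1.49 and -1.97, and 5 of the 26 were listed at 0.

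Receptors for myeloid cytokines were widely present, with 23 of 28 measured at a median percentile of 75.7. Ifngr1, a chain of the interferon gamma receptor, had 12.93, 12.81 and 12.79, and the GM-CSF receptor chain Csf2ra had 12.53, 12.66 and 12.64. Its partner Csf2rb, which has a measured near copy, had a mean of 12.32 ± 0.06, and the common gamma chain Il2rg had 12.22 ± 0.11. The receptors of other lineages were low: Epor (3.35), Il7r (3.93) and Il5ra, which was listed at 0.

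Homing and adhesion genes were measured for 20 of 23, at a median percentile of 60.4. Cd47, the "do not eat me" signal to macrophages, was highest with 13.88, 13.87 and 13.90. Icam1 (12.70 ± 0.13), the hyaluronan receptor Cd44 (13.704 ± 0.067), the selectin ligand Selplg (12.05 ± 0.16) and Itgb2 followed. The lymphocyte receptors Cxcr3 (0.22) and Cxcr5 (2.03) were not measured.

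Genes of cell division were measured throughout. All 30 DNA replication genes and all 25 mitosis genes were measured, at median percentiles of 87.3 and 85.4. Rrm2, the nucleotide reductase subunit of S phase, had 12.94, 13.08 and 13.20, and the sliding clamp Pcna had 12.18, 12.37 and 12.38. Among helicase subunits Mcm6 (13.13 ± 0.03) and Mcm3 (12.59 ± 0.02) were high, and the lowest of the list was the polymerase gene Pole (8.32 ± 0.09, percentile 47.0). In mitosis the cyclin gene Ccnb2 had 12.43, 12.45 and 12.22 and the ubiquitin-conjugating enzyme Ube2c had 11.53, 11.59 and 11.62, with the survivin gene Birc5 (11.46 ± 0.04) next. The long transcripts Cenpf and Cenpe were lowest per length, at percentiles 53.4 and 60.05. Of 11 inhibitors of the cell cycle 9 were measured, and Cdkn1a, which encodes p21, stood out at 13.06, 13.13 and 13.07, percentile 97.96. Cdkn2a, often silenced in leukaemia, had a mean of 2.75 ± 0.03 and Cdkn2b 4.36 ± 0.04.

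Metabolic and translation genes filled the top of the scale. Glycolysis genes were measured for 21 of 22 at a median percentile of 92.9. In the enolase and pyruvate kinase families a single gene dominated. Per length Eno1 stood at 15.08 log2 per kb against 4.13 for the neuronal Eno2 and 5.69 for the muscle Eno3. Pkm stood at 14.31 against -0.56 for the liver and red cell form Pklr. Nuclear genes of the respiratory chain were measured for 28 of 32 at 95.8, from Cox4i1 (13.94 ± 0.05) down to the muscle and brown fat form Cox8b (-0.98). All 13 mitochondrially encoded genes were measured, at a median percentile of 98.8. For ribosomal proteins the count was 81 of 85 at 98.5, led by Rps18, Rps19 and Rplp0 with deposited means of 13.49, 13.90 and 14.67. Translation factors were measured for 25 of 26 at 93.3, and cytoskeletal genes for 22 of 25 at 98.8.

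Antigen presentation differed between its classes. Genes of MHC class I were measured for 13 of 14, at a median percentile of 94.0, with B2m at 14.23, 14.02 and 14.30, H2-D1 at 14.66 ± 0.06 and H2-K1 at 13.25 ± 0.04, whereas their transactivator gene Nlrc5 had a mean of 3.21. Of 11 MHC class II genes 7 were measured, at 50.7. H2-DMb1 (11.05 ± 0.08) and H2-Ab1 (9.82 ± 0.13) were high, while H2-Aa, whose product pairs with that of H2-Ab1, had a mean of 4.71, the transactivator gene Ciita 3.82, and H2-Eb1 was listed at 0. Stress and immediate early genes, which tissue handling can induce, were measured for 16 of 19, at 64.8. Ier2 (13.10 ± 0.07), Junb (12.65 ± 0.03) and Hsp90aa1 (12.93 ± 0.16) were highest, Fosb had 7.29, 6.82 and 6.70, and Egr3 lay at -1.97.

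Of the 3 genes named in the series title, Prmt6, an arginine methyltransferase, had deposited values of 7.82, 7.60 and 7.41 in these wild-type libraries, at percentile 51.2. Igf2bp2, which encodes a reader of methylated mRNA, had 5.66, 5.55 and 5.73, and Mfsd2a, a lipid transporter, had 3.80, 3.74 and 3.81, under the threshold in each library. Per length the 3 genes stood in this order, at 5.999, 3.68 and 2.68 log2 per kb. Their ranges did not overlap. Values as low as those of Mfsd2a show little spread between libraries, so its range does not tell how well its level is known. Several relatives were higher on the same per-length scale: Prmt1 stood at 10.91, Prmt5 at 10.53, Prmt7 at 9.47 and Prmt3 at 9.36, and Igf2bp3 at 8.46. Of the 14 genes in this family list 11 were measured, and Prmt8 was lowest with a deposited mean of 0.72.

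By position in the genome, the share of protein-coding genes that were measured ran from 39.0% on chromosome 14 to 57.3% on chromosome 12 among the autosomes. On chromosome X it was 33.1% (301 of 910 genes). On chromosome Y 2 of 164 genes were measured, and the demethylase gene Kdm5d was at 6.59, 6.53 and 6.69. Of the other Y-linked genes in the sex-linked list, Uty, Eif2s3y and Ddx3y had means of 3.94, 2.06 and 1.92, and Usp9y was listed at 0. Among 86 protein-coding genes of CD surface molecules that carry a Cd number as their symbol, 40 were measured. They were led by Cd47, the tetraspanin Cd63 (13.49) and Cd53 (13.66). Among 70 replication-dependent histone genes, pseudogenes included, whose mRNA mostly lacks a poly(A) tail, 36 were measured. Both shares lie close to the 48.7% of all protein-coding genes.

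Several levels at the top and bottom of the table belong to genes that have near-identical copies, and their reads cannot be assigned to 1 locus with certainty. The sequences below are from GENCODE M21 transcripts, shown because they carry the point, with capitals for the single mismatch between 483 aligned bases of mt-Co1 (transcript positions 1063 to 1142) and the nuclear pseudogene Gm29216 (positions 10 to 89, chr1:24615706-24616197).
mt-Co1: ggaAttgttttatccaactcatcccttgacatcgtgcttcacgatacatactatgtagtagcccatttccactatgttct
Gm29216: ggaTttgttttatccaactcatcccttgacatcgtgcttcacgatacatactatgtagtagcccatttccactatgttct
mt-Atp6 and Gm10925, identical over 678 bases, positions 1 to 80 of both: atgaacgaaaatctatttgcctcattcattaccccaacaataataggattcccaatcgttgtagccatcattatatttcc
Rps12 and Rps12l1, identical over 399 bases, positions 158 to 237 of the gene and 1 to 80 of the copy: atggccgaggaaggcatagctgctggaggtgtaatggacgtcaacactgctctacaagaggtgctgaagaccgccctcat

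Gm10925, the copy of mt-Atp6 on chromosome 1, had deposited values of 13.48, 13.54 and 12.33, while mt-Atp6 itself, a subunit of ATP synthase, had 13.73, 13.14 and 13.80. The copy was lowest in library 3 and the mitochondrial gene was lowest in library 2. On their sum the libraries had 14.61, 14.36 and 14.24, with an SD of 0.19, against 0.69 for the copy and 0.36 for the gene. Gm28437, identical to mt-Co3 over 783 bases, had 12.08, 11.97 and 10.92 (SD 0.64), and mt-Co3 itself had 13.23, 13.01 and 12.92 (SD 0.16). Here both were lowest in library 3, and their sum, with an SD of 0.26, varied more than the mitochondrial gene alone. Gm29216 had a mean of 13.27 beside 14.42 for mt-Co1.

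The sixth most abundant gene per length, Gm15500, shares 1018 of 1018 aligned bases with the ribosomal protein gene Rpl5. Gm15500 had 15.52, 15.64 and 15.73, whereas Rpl5 had 11.06, 11.11 and 11.31. Per length the means were 15.60 and 10.13. Ppia and Gm10123, identical over 490 bases, had means of 14.88 and 13.43. Rps12 is the reverse case: the gene had a mean of -0.62, although other ribosomal proteins lie near the top, while the copies Rps12l1 and Rps12-ps3 had 9.55 and 9.21. The table holds 23 Rps12 copies, of which 3 were measured and 9 were listed at 0. In all, 30 ribosomal protein genes, 4 mitochondrially encoded genes and 6 of the 25 most abundant genes have a measured near copy. A near copy has at least 95% identity over at least 50% of the shorter transcript. It is called measured if its mean over the libraries was at least 5, a looser rule than for genes. None of the genes of the gate, Hox, cofactor or transcription factor lists has such a copy, and in the primary granule list Lyz1 does, whose measured copy is Lyz2. Hist1h2ap, the leading replication-dependent histone gene at 13.81, has at least 6 measured near copies. The 6 with the most identical bases had means of 5.47 to 9.09, and the reads of these genes cannot be told apart with certainty.

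The 3 libraries were close to each other. Over the measured genes, Pearson's r across genes was 0.99720 between libraries 1 and 2, 0.99658 between 2 and 3 and 0.99551 between 1 and 3. Genes are not independent replicates, so these are descriptions. The highest and lowest library lay within 0.25 of each other for 80.4% of measured genes, and 44 genes had a range of at least 1. The median SD of a gene was 0.0866 for means from 5 to under 8, 0.0817 from 8 to under 10, 0.0670 from 10 to under 12 and 0.0631 at 12 and above. Below the threshold it was smaller, at 0.0343 from 2 to under 5 and 0.00247 below 0. The low end of the deposited scale thus shows almost no spread between libraries, and the SD of a low gene there is not a measure of how well its level is known.

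**Figure D4:**
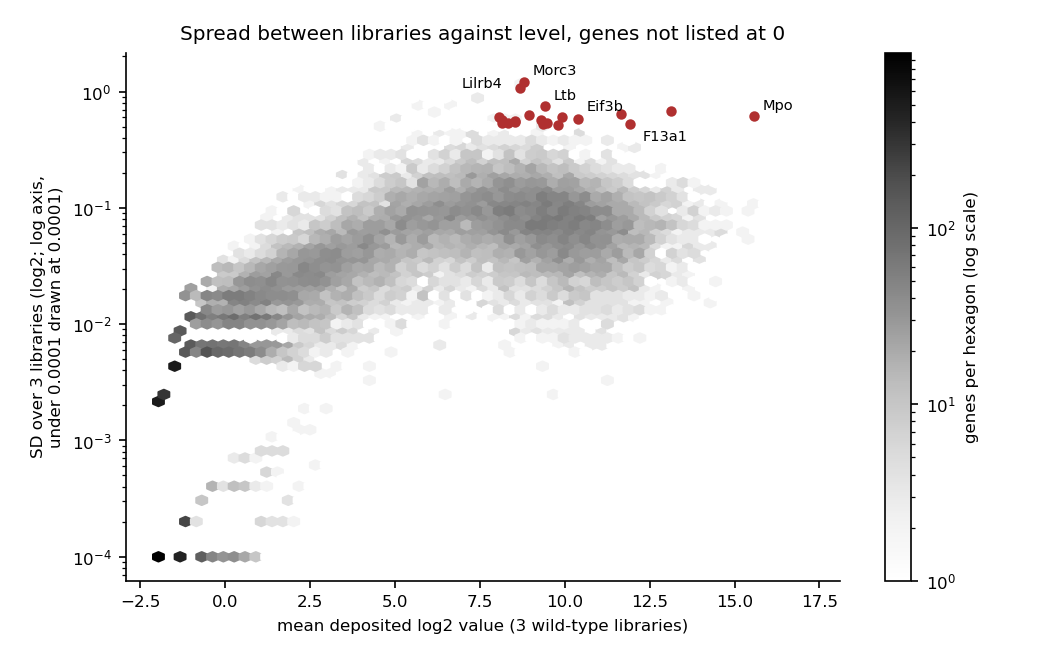
SD over the 3 wild-type libraries (vertical log axis, values under 0.0001 drawn at 0.0001) against the mean deposited log2 value (horizontal axis) for genes not listed at 0, with darker hexagons for more genes and red points for the 20 genes of largest SD among those with a mean of at least 8. The median SD is 0.00247 for means below 0 and 0.0866 from 5 to under 8, and Mpo is the red point of highest level.

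The 20 genes of largest SD, among 7365 genes with a mean of at least 8, were led by Morc3, a nuclear ATPase, with deposited values of 10.17, 8.40 and 7.83 (chr16:93832121-93876073). Lilrb4, an inhibitory receptor of myeloid cells, had 9.53, 9.06 and 7.48, and has a measured near copy of 96.3% identity, Gp49a, at a mean of 7.87. Ltb, the lymphotoxin beta gene, went the other way with 8.83, 9.15 and 10.25. The 2 mitochondrial copies Gm10925 and Gm28437 were next, followed by the matrix gene Emilin2 (9.64, 8.77 and 8.44) and Mpo. These were chosen for their spread, so the values are a description. The last gene inside the rule was Gm28062 with an SD of 0.52 and the first outside was Fxr1 with 0.51.

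Library 3 was the farthest from the other 2 for 13 of the 20 genes. It was highest for 6, namely Ltb, Mpo, Serpine2, Gtf3c2, Osbpl11 and F13a1, and lowest for 12. Of these, Gtf3c2 has a near copy, Gm29609, identical over 2556 bases and at a mean of 6.37. The reads of Gtf3c2 and this copy cannot be told apart with certainty. Library 1 was farthest for 5, among them Morc3, the translation factor Eif3b (11.05, 10.17 and 9.97) and the splicing factor Prpf19 (9.93, 9.09 and 8.84). Library 2 was farthest for Alpk1 (8.59, 7.39 and 8.16) and for Nnt (9.87, 8.85 and 9.67). Klf2, a factor of quiescence (9.09, 8.56 and 7.99), and Bcl3 (9.86, 9.39 and 8.82) were highest in library 1. Over all measured genes library 3 was the farthest for 38.4%, library 1 for 34.2% and library 2 for 27.4%, so the imbalance among all genes is smaller than among these 20.

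**Figure D5:**
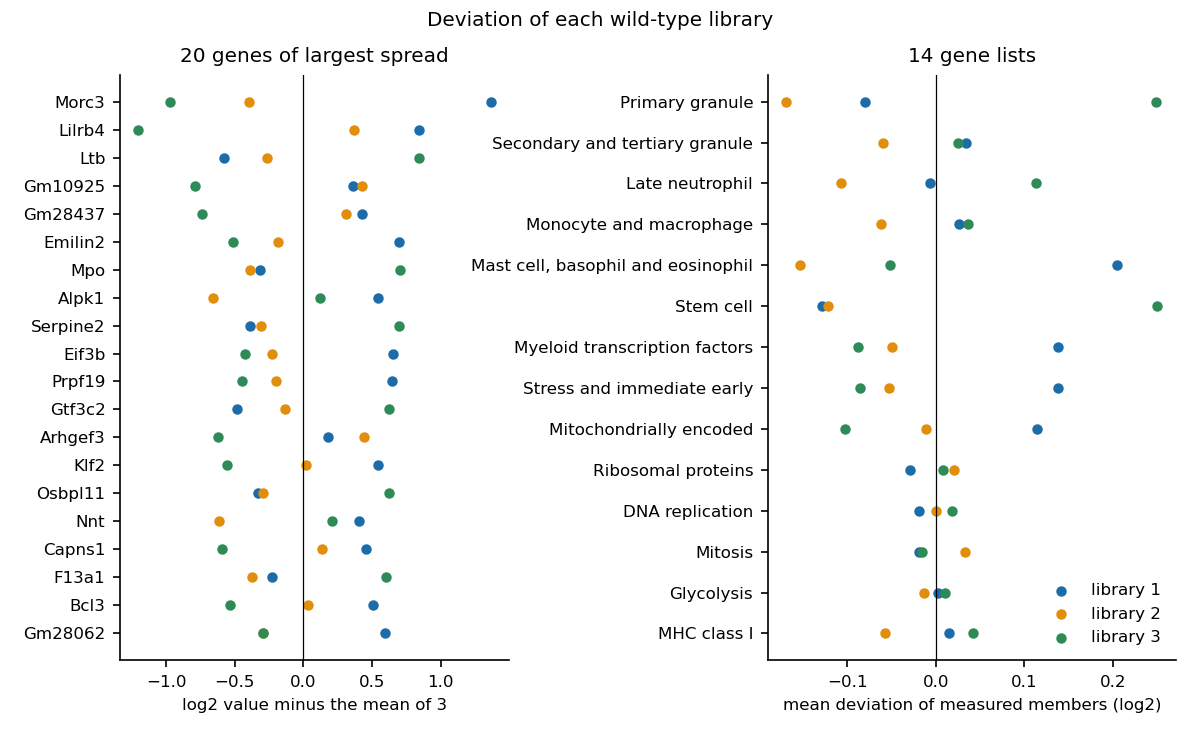
Left, deposited log2 value of each wild-type library minus the mean of the 3 for the 20 genes of largest SD. Right, the mean of these deviations over the measured members of 14 gene lists. Library 3 lies right of 0 for primary granule and stem cell genes, at 0.25 for both, and ribosomal, replication, mitosis and glycolysis lists lie near 0 in every library.

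By gene list, library 3 was higher for primary granule genes, with mean deviations of -0.08, -0.17 and 0.25 in libraries 1, 2 and 3 over 10 measured members. Of these members Cst7 went the other way, with 11.38, 11.18 and 10.83. The stem cell list had -0.13, -0.12 and 0.25 over its 8 measured members, to which Mecom and Prdm16 gave most. Library 1 was higher for stress and immediate early genes (0.14, -0.05 and -0.09) and for mast cell, basophil and eosinophil genes (0.20, -0.15 and -0.05). The same held for myeloid transcription factors (0.14, -0.05 and -0.09 over 30 measured members). Mitochondrially encoded genes had 0.11, -0.01 and -0.10. The lists of ribosomal proteins, DNA replication, mitosis and glycolysis deviated by at most 0.034 in any library. Across 10543 measured genes with a length, the deviation of library 3 had a Pearson's r of -0.19 with the GC content of the transcript, against 0.14 for library 2 and 0.087 for library 1. For the logarithm of length the values were -0.048, -0.070 and 0.11. The part of GC content or of the stress genes in the deviations of single genes was not tested.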

How the data were processed

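Per the file headers, the deposited log2 values come from HOMER's differential expression program, run on a count table that held 3 columns of each genotype. Per the submitters' processing notes, Trim Galore, kallisto and HOMER were used, without versions, with GRCm38. The transformation, the counting annotation and the depth are not given in the sources used here, so no counting interval or floor could be set. The authors' log2 fold changes and p-values, as deposited, and the knockout columns were not used. Because the authors normalized all 6 libraries together, the wild-type values still depend on the others.

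One row without a gene name (0.00333% of rows) was left out, and 25 symbols turned into dates are not named. Symbols were matched to GENCODE M21 on GRCm38 for 29055 genes (96.7%), 867 of them through an older symbol. Length is that of the longest transcript marked as principal, otherwise of the longest transcript. Near copies were found with BLAST 2.17.0. RefSeq promoters were matched for 16573 genes. Python 3.11.15, numpy 2.4.6 and pandas 2.3.3 were used, and the calculations were tested on simulated data.

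With 1 group of 3 libraries no test was run and no p-value is given. The 39 gene lists were chosen with earlier results of these data known. Genes were named by rule: the 25 of highest per-length level, the first 5 of the transcription factor list, all gate markers, up to 6 highest and 4 lowest members of every other list, the 20 of largest SD at a mean of at least 8, and the 3 genes of the title. Other genes were named after their values were seen, and some genes that the rule would name are not reported here. The alternatives were leaving out each library, thresholds of 4 and 6, other lengths, other scalings and protein-coding genes only.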

Additional observations from a re-analysis of the deposited data

How the results depend on the processing

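Of 238 counts, shares and spreads recomputed under the alternatives, 224 stayed within the limits set for a change. The limits for counts were wide. Keeping 17 of the first 25 genes with the union of exons stayed within them. So did 9574 measured genes at a threshold of 6, against 10614 at 5. Of the median percentiles of lists, 139 moved by at least their SD over the libraries and 134 moved by less, so they are approximate. Of the 7932 genes listed at 0, 3115 are protein-coding. Divided by length, the first 10 genes held 7.92% and the first 100 held 26.2% of the linear sum. Without division by length 16 of the first 25 genes stayed among the first 25. A threshold of 4 gave 4 measured erythroid and 3 NK cell genes, and a threshold of 6 gave 0 Hoxb, 1 erythroid, 1 megakaryocyte and 2 T cell genes. The median SD of genes with a mean of at least 5 was 0.0580 to 0.0701 when 1 library was left out, and 0.0344 over genes of any level. Of 117 list counts without 1 library, 115 equalled the count with all 3. The median percentiles of lists moved by -15.0 to 6.88 without division by length and by -5.64 to 5.69 with the union of exons. Depth is unknown, so a gene at the low end cannot be called absent. No paired analysis was possible because only 1 group is described.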
